A study of Mus musculus with 84 samples.

Results

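The endocannabinoid system was read through 7 genes: Cnr1, which encodes the cannabinoid receptor CB1, and 6 genes for enzymes that make or break down its lipid ligands, Dagla, Daglb, Napepld, Faah, Mgll and Abhd6. They were taken by their symbols and not by a rule on their values, though earlier results of these data were known then. They are 7 of the 43629 genes in the count table. All 7 were among the 16320 genes with enough counts to be tested. The samples were RNA from the central nucleus of the amygdala (CeA) of 84 mice, 43 females and 41 males, of the Heterogeneous Stock Collaborative Cross (HS-CC), an outbred stock. All of them had the same treatment: after 5% and then 10% ethanol as an introduction, each mouse, housed alone and at a median age of 15 weeks at the start, had a tube of water and a tube of 10% ethanol for 13 weeks (90 to 93 days), with ethanol offered until it was euthanized between 10 AM and 2 PM. No animals without ethanol are among the samples used here, so drinking enters only as a graded measure, the preference ratio (volume from the ethanol tube over the volume from both tubes). Up to 3 mice shared a family and which animals did so is not given in the sources used here, so the animals are not fully independent.

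Endocannabinoids are lipids that neurons make on demand from membrane phospholipids. Released from the postsynaptic side, they act back on CB1, a receptor coupled to inhibitory G proteins on presynaptic terminals, and lower the release of GABA or glutamate. The amygdala is among the regions where this signal is known to shape responses to stress and to alcohol. The pair of main ligands have separate routes: diacylglycerol lipases alpha and beta (Dagla, Daglb) make 2-arachidonoylglycerol (2-AG), which monoacylglycerol lipase (Mgll) and, on the postsynaptic side, Abhd6 hydrolyse, while the phospholipase D encoded by Napepld forms anandamide and related N-acylethanolamines, which fatty acid amide hydrolase (Faah) breaks down.

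The 7 genes lie at 7 separate places in the table's positions (mouse build GRCm38): Cnr1 on chromosome 4 from 33924593 to 33948831 on the plus strand, Faah on chromosome 4 from 115967145 to 116017926 on the minus strand, Mgll on chromosome 6 from 88724412 to 88828360 (plus), Dagla on chromosome 19 from 10245265 to 10304877 (minus), Daglb on chromosome 5 from 143464493 to 143504442 (plus), Napepld on chromosome 5 from 21662901 to 21701396 (minus) and Abhd6 on chromosome 14 from 8002902 to 8056555 (plus). The values are reads over their exons. Mgll shares 90 bases at its start with Gm26588 on the opposite strand, which had 22 to 147 counts a library beside 2292 to 8291 of Mgll. Napepld holds Gm15719, an opposite-strand gene with 0 to 2 counts a library.

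The upstream sequences of Faah, Napepld and Abhd6 are shown because Faah with Napepld and Faah with Abhd6 had the highest correlations of the member pairs, described further on. Each is the part before the RefSeq transcription start (GRCm38.p6), read 5′ to 3′ on the gene's own strand, and capitals mark the matches to the motifs searched. The Faah window lies at chr4:116017927-116018174 on the minus strand, shortened by 2 bases where an exon of the gene begins in GENCODE M21, and its capitals are 2 GC boxes (GGGCGG or its complement). The Napepld window is chr5:21701623-21701872 on the minus strand, with 2 matches to AAGATGGC, the core of the YY1 motif, 1 on each strand, letters that were searched for after the sequence had been read. The Abhd6 window, the first of 2 entries for that gene, is chr14:8002638-8002887 on the plus strand, with 1 CCAAT box (ATTGG on the other strand).
Faah: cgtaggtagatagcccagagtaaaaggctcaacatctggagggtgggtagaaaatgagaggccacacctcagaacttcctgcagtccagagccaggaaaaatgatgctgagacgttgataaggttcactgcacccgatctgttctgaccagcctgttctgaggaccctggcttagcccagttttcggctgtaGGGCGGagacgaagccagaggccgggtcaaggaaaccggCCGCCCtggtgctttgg
Napepld: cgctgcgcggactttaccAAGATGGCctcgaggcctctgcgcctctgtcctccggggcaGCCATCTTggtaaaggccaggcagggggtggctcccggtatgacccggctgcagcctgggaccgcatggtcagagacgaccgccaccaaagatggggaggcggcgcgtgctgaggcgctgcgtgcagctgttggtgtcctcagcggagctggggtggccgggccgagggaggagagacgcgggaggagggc
Abhd6: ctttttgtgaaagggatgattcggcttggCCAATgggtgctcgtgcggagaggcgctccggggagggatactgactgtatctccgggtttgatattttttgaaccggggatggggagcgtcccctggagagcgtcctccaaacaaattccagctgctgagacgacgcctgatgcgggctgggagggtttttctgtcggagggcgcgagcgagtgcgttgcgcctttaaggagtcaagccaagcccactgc
Of the 32851 RefSeq promoters in the table, 1.56% held AAGATGGC, 32.7% a GC box and 33.8% a CCAAT box, each counted on both strands over the 250 bases before the start, so the last pair of motifs are common. The cAMP response element TGACGTCA (1.55% of promoters) and TATAAA (12.4%) had 0 matches in the windows of the 6 members with an entry, and the E-box CACGTG (6.02%) matched in 1 window of Cnr1 and 1 of Mgll. No motif was shared by the windows of Faah, Napepld and Abhd6 shown here. A match is a run of letters and not a known binding site.

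Libraries held 24118965 to 42036566 counts, with a median of 31573088.5. Marker genes were set beside the tissue label. The CeA consists largely of inhibitory neurons, and their markers Gad1 (median 490.5 CPM, counts scaled to a common library size with TMM factors) and Slc32a1 (219.9) were present in every library. The 12 markers of inhibitory and CeA neurons had medians from 5.05 CPM (Ebf1) to that of Gad1, with 350.4 for Sst, 97.1 for Nr2f2, 40.4 for Dlk1, 18.6 for Prkcd and 6.92 for Crh, and none was at 0 in any library. Slc17a7, the vesicular glutamate transporter of cortical and basolateral excitatory neurons, had a median of 1359 CPM, above that of Gad1, and ranged from 12.99 to 2404. The 5 libraries with the lowest excitatory score, the mean z-score of 12 excitatory neuron markers, were females 1, 19 and 26 and males 15 and 35. No wide gap set them off: their scores ran from -2.98 (female 19) to -1.54 (male 35), and the next was -1.22 (female 18). Spans, spreads, correlations and the week 13 slopes of Napepld and Faah are also given without those libraries. Medium spiny neuron markers also varied widely, with Ppp1r1b from 50.7 to 2198 CPM and Adora2a from 1.45 to 458. The choroid plexus marker Ttr ran from 0.0988 to 23631 CPM. How much tissue from outside the CeA each library held was not tested. In bulk tissue, fewer cells of a type and less RNA per cell cannot be told apart.

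Per kilobase of exon, Mgll and Cnr1 had the highest levels and Napepld the lowest. Levels are given as RPKM, CPM per kilobase of the exon length in the table, as lowest, median and highest of the 84 animals.

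Cnr1, the receptor gene, had 12.6, 30.98 and 84.7 RPKM, a 6.71-fold span from male 35 to male 18. It ran from 15.3 to 58.0 in females (median 30.3) and from 12.6 to 84.7 in males (median 33.8). The shared range was 15.3 to 58.0, and males 18 and 28 lay above every female. Dagla, whose lipase makes most of the 2-AG that acts across synapses in the adult brain, had 7.91, 15.8 and 24.7 RPKM. Daglb, the second 2-AG-forming lipase, known best from microglia and macrophages, had 5.34, 8.61 and 12.2. Napepld had 1.84, 4.95 and 7.93, the lowest being female 26 and the highest male 3. Dagla thus stood above its paralog, and the enzyme gene of the anandamide route was the lowest of the 7.

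Of the genes for breakdown, Mgll had 17.04, 31.3 and 54.3 RPKM, with male 35 lowest and female 42 highest. Abhd6 had 16.5, 24.8 and 31.7, a 1.92-fold span that was the narrowest of the 7. Faah had 4.18, 11.5 and 18.8, a 4.49-fold span. The plot of levels by sex shows a tail of low values for Faah and Napepld that Abhd6 and Daglb lack. Without the 5 libraries lowest in the excitatory score, the span was 5.34-fold for Cnr1, 3.72-fold for Faah, 2.99-fold for Napepld and 1.85-fold for Abhd6, still the narrowest of the 7.

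**Figure D1:**
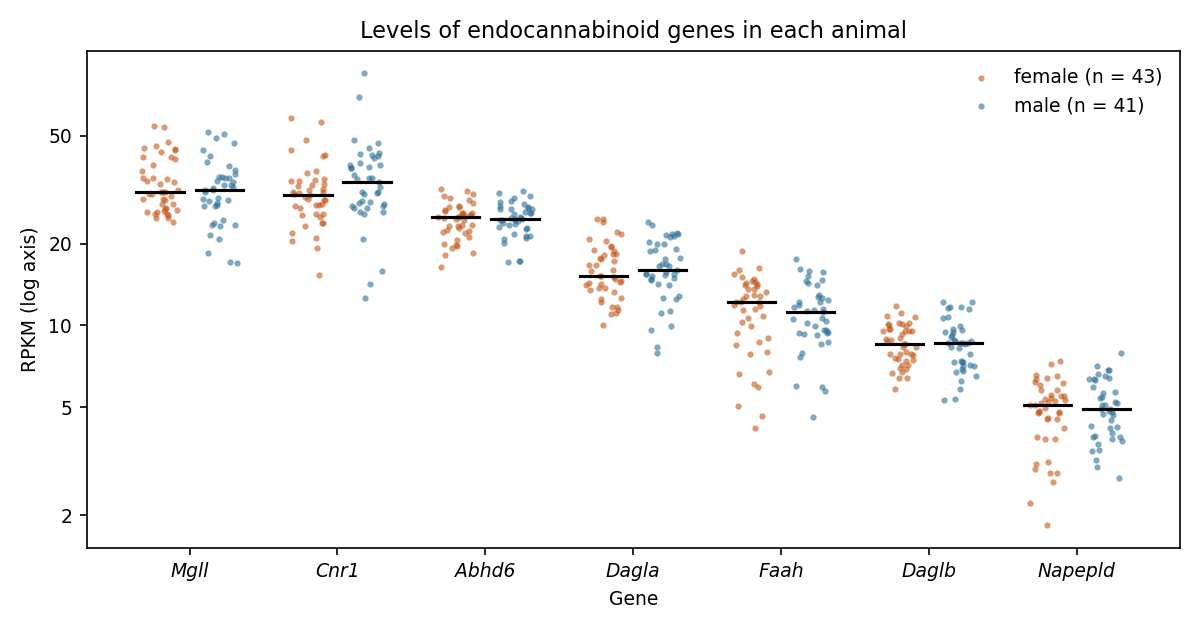
RPKM on a log axis for each of the 7 genes, 1 point per animal, 43 females and 41 males side by side, with black lines at the medians. Medians fall from Mgll (31.3) to Napepld (4.95), the sexes overlap for every gene, and Faah and Napepld have low tails down to 4.18 and 1.84.

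The order of the levels was Mgll, Cnr1, Abhd6, Dagla, Faah, Daglb and Napepld, and 5 of the 6 neighbouring pairs differed within animals (2-sided sign-flip permutation test over the 84 animals, Benjamini-Hochberg adjusted over 6 pairs). Mgll and Cnr1 did not: the mean log2 difference in RPKM was 0.02 ± 0.45 (SD), Mgll was the higher in 49 of 84 animals, and p was 0.684. The mean difference was 0.13 among females (p = 0.0745) and -0.09 among males (p = 0.145). Neither was told apart from 0, and a difference between the sexes was not tested. Cnr1 exceeded Abhd6 by 0.37 ± 0.41 on the log2 scale, in 71 animals. Abhd6 exceeded Dagla by 0.62 ± 0.29 in 83 animals, and Dagla exceeded Faah by 0.57 ± 0.43 in 79. Faah exceeded Daglb by 0.34 ± 0.40 in 66, and Daglb exceeded Napepld by 0.83 ± 0.44 in 83. For those 5 pairs p was 1e-05, the smallest that 100000 resamples can give, and the adjusted p 1.2e-05. Exon length comes from all annotated transcripts of a gene, so a level per length depends on which are in use.

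Variation between animals set the members apart from each other. Within sex, the SD of log2 CPM was 0.48 for Faah and 0.45 for Cnr1, above 93.6% and 92.8% of the genes within 1 log2 unit of the same mean level. It was 0.41 for Napepld (80.7%), 0.36 for Mgll (84.9%) and 0.36 for Dagla (85.9%). Daglb, with 0.28 (70.4%), and Abhd6, with 0.21 (48.0%), varied least. The SD without the 5 libraries was 0.40 for Faah (90.8%), 0.39 for Cnr1 (90.6%), 0.36 for Napepld (76.8%), 0.34 for Mgll (85.0%), 0.33 for Dagla (83.4%), 0.27 for Daglb (70.6%) and 0.19 for Abhd6 (40.0%). Low values of several members came from the same libraries: male 15 was among the 5 lowest animals for 6 of the 7 genes, male 35 for 5, male 19 for 4, and females 26 and 34 for 3 each. Of these 5 libraries, 3 are among those with the lowest excitatory marker score, and the other two rank 7 and 8 from the bottom in it.

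The sequence of sample-sheet numbers in the sample titles falls into 4 runs, with 18, 18, 17 and 31 animals, and these were treated as possible batches. Medians were higher in run 1 than in runs 2, 3 and 4 for Faah (109 CPM against 89.7, 82.7 and 83.5), for Abhd6 (62.2 against 52.7, 52.1 and 50.6), for Daglb (54.4 against 46.3, 48.7 and 43.1) and for Napepld (21.8 against 18.7, 20.2 and 19.1). For Cnr1 (209.3, 219.1, 200.4 and 191.9), Dagla (94.0, 100.2, 91.2 and 87.1) and Mgll (159.9, 153.4, 142.4 and 150.2) the runs lay closer. Each run held both sexes.

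Neither sex nor drinking gave a called member. Over 11 fits of edgeR's quasi-likelihood test, 0 of 77 member tests reached an adjusted p under 0.05 (Benjamini-Hochberg over all 16320 genes), and 2 had an unadjusted p under 0.05. DESeq2 called 0 of the 77 and had 2 under an unadjusted 0.05, and limma-voom called 0 with 4 under it. The number under an unadjusted 0.05 was 6 with run as a term and 4 without the 5 libraries highest in the choroid plexus score, with 0 called in both. The sexes differed in few genes of this table (15 of 16320, 0.0919%, with 3.81% at an unadjusted p under 0.05).

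Cnr1 had the largest sex difference of the 7, 0.16 ± 0.10 (SE) higher in males on the log2 scale (unadjusted p = 0.0987, edgeR adjusted p = 0.986). Its medians were 195.2 CPM in females and 217.8 in males, with ranges of 98.8 to 374 and 81.4 to 546. Mgll was 0.08 ± 0.08 lower in males (means of 33.8 RPKM in females and 31.9 in males, with the median slightly higher in males, adjusted p = 0.986). The others lay between -0.04 and 0.04.

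Mean preference over the 13 weeks ran from 0.0262 to 0.759 with a median of 0.199, and 6 of the 84 animals, 5 females and 1 male, reached 0.5. Slopes are log2 changes in expression per 0.5 rise in preference, with sex as a term, ± SE. For mean preference in all animals edgeR called 0 of 16320 genes (0%), and 3.94% had an unadjusted p under 0.05, and no member was among these. Slopes of the 2-AG genes were near 0: Dagla 0.09 ± 0.12, Daglb 0.03 ± 0.10, Mgll -0.05 ± 0.13 and Abhd6 0.03 ± 0.07. Cnr1 had 0.01 ± 0.16. The genes of the anandamide route had the largest slopes, 0.25 ± 0.13 for Napepld (unadjusted p = 0.0605) and 0.21 ± 0.15 for Faah (p = 0.164), both with an edgeR adjusted p of 1.00.

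The 6 animals that preferred ethanol on average lay inside the range of the others for each gene except Faah, where 1 of them, female 37, was the highest of all animals. Napepld had a lowest, median and highest level of 14.9, 23.4 and 29.2 CPM in these 6 and 7.28, 19.5 and 31.4 in the other 78. Faah had 73.8, 103 and 147 against 32.7, 89.1 and 137. For Cnr1 they were 163.9, 185.95 and 234.6 against 81.4, 200.2 and 546. The groups overlapped for each of these 3 genes.

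Week 1 preference, before long exposure, ran from 0.023 to 0.739. With edgeR, 5 genes were called for it (0.0306% of those tested) and none was a member, and 0 members were among the 3.25% with an unadjusted p under 0.05. Napepld again had the largest slope of the 7, 0.20 ± 0.13 (unadjusted p = 0.122), followed by Faah with 0.17 ± 0.14 (p = 0.233). Dagla (0.09), Daglb (0.09), Abhd6 (0.07) and Cnr1 (0.07) sloped less, and Mgll had -0.04. In females 0 members were among the 2.3% of genes with an unadjusted p under 0.05 for week 1, and in males 0 were among the 5.02% (0.0368% called).

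Week 13 preference, the last week before tissue was taken, gave the smallest p among the members. Napepld had a slope of 0.26 ± 0.10, an unadjusted p of 0.0136 and an adjusted p of 0.664; by p it ranked 317 of 16320 genes. At this unadjusted threshold 979 genes passed (6% of those tested), and 1 of 7 members under it does not set them apart. Animals with a week 13 preference of at least 0.5 had 12.4, 22.4 and 29.2 CPM of Napepld (lowest, median and highest, n = 14), and the other 70 had 7.28, 19.1 and 31.4. The groups overlapped. Daglb (0.13 ± 0.07, p = 0.0717), Dagla (0.15 ± 0.09, p = 0.109) and Faah (0.15 ± 0.12, p = 0.221) also had positive slopes. Abhd6 (0.06 ± 0.06), Mgll (-0.03 ± 0.10) and Cnr1 (-0.06 ± 0.12) lay near 0.

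Cell type markers had slopes of their own in this fit. In it 10 of the 12 excitatory neuron markers had a positive slope (median 0.26) and all 12 oligodendrocyte markers a negative one (median -0.24), while the median over all genes was 0.00. All 10 choroid plexus markers had a positive slope (median 1.5, 9 with an unadjusted p under 0.05), and so did all 9 measured ependymal markers (median 0.88, 8 under it). Of the inhibitory and CeA neuron markers 11 of 12 had a negative slope (median -0.21), of medium spiny 10 of 11 and of astrocyte 9 of 12. All 12 microglia, 8 oligodendrocyte precursor and 9 CCK and VIP interneuron markers were negative. Positive were 6 of 10 endothelial and mural and all 5 erythrocyte markers. Napepld itself had r = 0.25 with the choroid plexus score and 0.34 with the ependymal score over the 84 animals. Its slope without the 5 libraries highest in the choroid plexus score was 0.24 ± 0.11 (unadjusted p = 0.0412, edgeR adjusted p = 1.00). With the scores of the excitatory and medium spiny neuron lists as terms, the Napepld slope was 0.17 ± 0.06 (unadjusted p = 0.00762, adjusted p = 0.589), a smaller slope with a smaller unadjusted p. Without the 5 libraries lowest in the excitatory score it was 0.18 ± 0.10 (p = 0.0647). For Faah the slopes with the scores and without these libraries were 0.00 ± 0.07 and 0.04 ± 0.11. Within the runs, least-squares slopes of Napepld on log2 CPM were 0.16, 0.61, 0.47 and 0.01, against 0.29 over all animals, so all 4 were positive and run 4, with the most animals, had nearly none. The part of cell mix in the slope was not tested beyond these values.

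In females alone, the slopes of Napepld were 0.36 ± 0.18 for mean preference (unadjusted p = 0.0537) and 0.34 ± 0.14 for week 13 (p = 0.021, edgeR adjusted p = 0.389, with 8.64% of all genes at an unadjusted p under 0.05 and 0.0368% called). Those of Faah were 0.36 ± 0.21 and 0.26 ± 0.17. The 2 genes were not among the 6.94% of all genes with an unadjusted p under 0.05 for mean preference in females. In males, Napepld had 0.10 ± 0.19 and 0.15 ± 0.14, and Faah 0.01 ± 0.21 and 0.00 ± 0.16. There 1.69% of all genes had an unadjusted p under 0.05 for the mean and 3.65% for week 13, and 0 members did. The difference between the sexes in the slope on mean preference was tested: it was -0.35 ± 0.31 for Faah (male minus female, unadjusted p = 0.253) and -0.26 ± 0.27 for Napepld (p = 0.342), so neither was shown to differ, and 3.24% of all genes had an unadjusted p under 0.05 for this term. The 2-AG lipase genes had larger week 13 slopes in males, 0.25 ± 0.15 for Dagla and 0.23 ± 0.12 for Daglb, than in females, 0.08 ± 0.12 and 0.06 ± 0.09, and this difference was not tested for week 13. In the female week 13 fit all 11 measured medium spiny neuron markers had a negative slope (median -1.06), all 10 choroid plexus markers a positive one (median 2.76) and all 9 ependymal markers a positive one (median 1.41). Without the 5 libraries highest in the choroid plexus score, of which 2 are female, Napepld had 0.33 ± 0.16 in females (unadjusted p = 0.0407, edgeR adjusted p = 1.00). With the marker scores as terms the female week 13 slopes were 0.13 ± 0.09 for Napepld and -0.03 ± 0.10 for Faah.

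**Figure D2:**
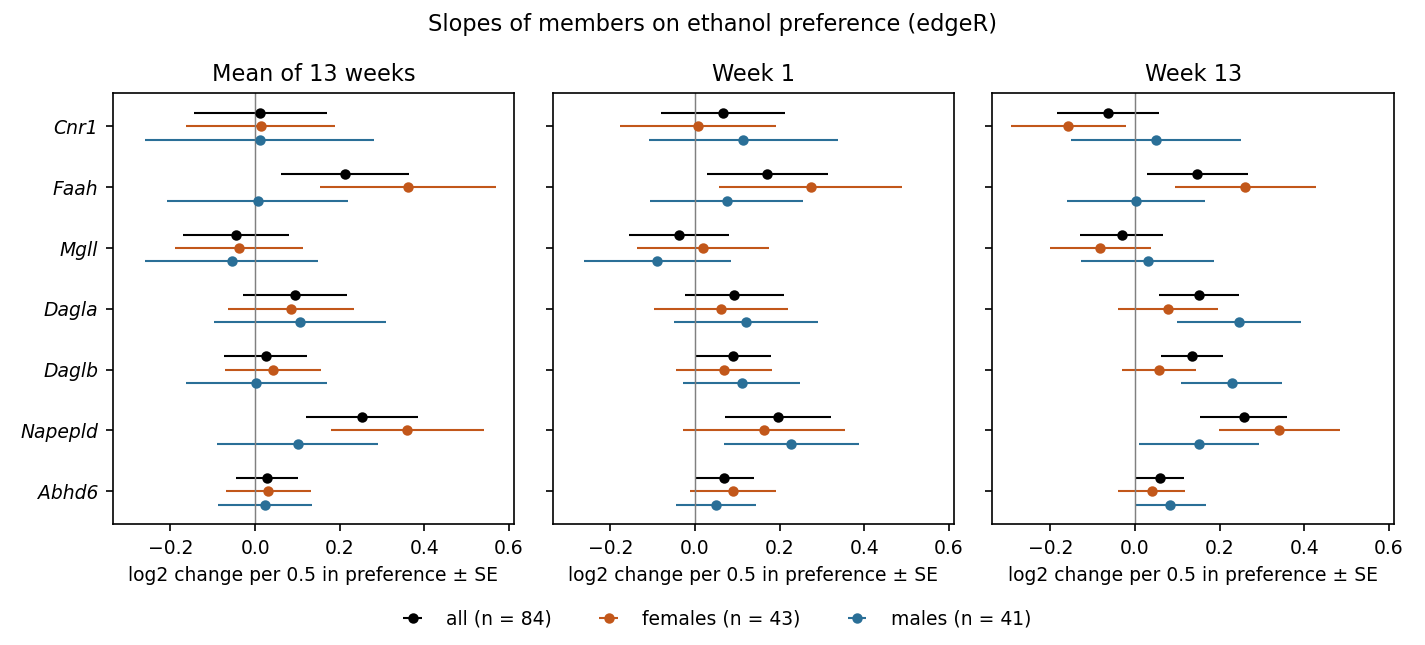
Log2 change in expression per 0.5 rise in ethanol preference, with bars of 1 SE, for 7 genes and 3 measures of preference, in all animals (black), females (orange) and males (blue). Napepld and Faah lie farthest right in females (0.36 each for the mean of all weeks), and Faah in males lies at 0.01.

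Other genes of endocannabinoid signalling were taken from a list of 38 symbols, of which 35 were in the table and 30 had enough counts. Gpr55, Gpr18, Gpr119, Trpv1 and Hrasls5 were too low to test, and Plaat1, Plaat3 and Plaat5 are not listed under those names. Among the 30, 0 were called in any of the 11 fits, and for mean preference 13 slopes were positive and 17 negative, with a median of -0.01 against 0.00 for all genes. The smallest p in that fit belonged to Alox12, the 12-lipoxygenase that can oxidise arachidonoyl lipids, with 0.64 ± 0.24 (unadjusted p = 0.0102, adjusted p = 1.00) at a median of only 0.337 CPM. Next were Ddhd1, a phospholipase, with 0.13 ± 0.07 (p = 0.0807) and Gnai3, an inhibitory G protein subunit, with 0.09 ± 0.06 (p = 0.136). Cnr2, the CB2 receptor gene, had 0 to 24 counts a library, at 0 in 1 animal, with a median of 0.275 CPM and a highest value of 0.723. The CB1-interacting proteins Cnrip1 (51.5 to 159.3 CPM) and Sgip1 (83.4 to 192.6) and the 2-AG hydrolase Abhd12 (235.8 to 394.3) were present in every library.

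The members' levels rose and fell together across animals. Of the 21 pairs, 20 had a positive Pearson correlation of log2 CPM that passed a 2-sided permutation test (adjusted over the 21 pairs). This count has a high background: the smallest passing r, 0.231, was matched in size by 45.7% of all other tested genes for Cnr1, 48.6% for Faah, 38.1% for Mgll, 57.1% for Dagla, 41.6% for Daglb, 40.9% for Napepld and 47.6% for Abhd6. The highest values are read against these shares below.

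Faah and Napepld, which break down and form anandamide, had the highest correlation, r = 0.73 and Spearman's rho = 0.67 over 84 animals (permutation p = 1e-05, the smallest possible, adjusted 2.1e-05). When the 2 animals with the most extreme Faah were left out, r was 0.71, and within the 4 runs it was 0.71, 0.83, 0.80 and 0.57. It was 0.82 in females and 0.61 in males. Of all genes, 0.178% were as highly correlated with Napepld as Faah was, and 1.48% with Faah as Napepld was. Animals low in one were low in the other: female 26 had the lowest value of both, 32.7 CPM of Faah and 7.28 of Napepld, and female 37 the highest of both in females, 147 and 29.2.

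Faah was correlated nearly as closely with Abhd6, a 2-AG hydrolase of another route, with r = 0.72 and rho = 0.63 (p = 1e-05, adjusted 2.1e-05). Without the 2 farthest animals r was 0.66, and within the runs it was 0.59, 0.72, 0.80 and 0.67. Of all genes, 0.870% were as highly correlated with Abhd6 as Faah was, and 1.76% with Faah as Abhd6 was. Napepld and Abhd6 had r = 0.52 and rho = 0.50 (p = 1e-05, adjusted 2.1e-05), with 0.50, 0.41, 0.69 and 0.36 in the runs. That value is more common: 7.14% of all genes were as highly correlated with Abhd6 as Napepld was, and 3.66% with Napepld as Abhd6 was. The upstream sequences printed above are those of these 3 genes.

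Dagla was correlated both with the receptor and with Mgll. Dagla and Mgll, which make and break down 2-AG, had r = 0.62 and rho = 0.57 (p = 1e-05, adjusted 2.1e-05), and 0.24, 0.81, 0.72 and 0.61 within the runs. Cnr1 and Dagla had r = 0.60 and rho = 0.54 (p = 1e-05, adjusted 2.1e-05), and 0.41, 0.75, 0.59 and 0.57 within the runs. Without the 2 farthest animals these were 0.55 for both pairs. Of all genes, 1.78% were as highly correlated with Cnr1 as Dagla was, and 7.56% with Dagla as Cnr1 was. For Dagla and Mgll these shares were 0.901% with Mgll and 6.73% with Dagla. Cnr1 and Mgll themselves were less close, with r = 0.42 and rho = 0.29 (p = 8e-05, adjusted 0.000112). That pair had r = 0.15 in females (p = 0.327, adjusted 0.362) and 0.63 in males (p = 2e-05, adjusted 7e-05), and -0.16 in run 1. Dagla and Daglb, the paralogs, had r = 0.54 and rho = 0.51 (p = 1e-05, adjusted 2.1e-05). As high a correlation was found for 10.2% of all genes with Dagla and for 3.44% with Daglb.

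Abhd6 was about as close to other members as to Napepld (0.52). It had r = 0.58 with Dagla, 0.52 with Daglb and 0.51 with Mgll. Faah with Daglb had r = 0.55. The low values were mostly those of Napepld. Mgll and Napepld had r = 0.02 and rho = 0.01 (p = 0.878), the 1 pair that did not pass, and within the runs r was 0.00, -0.18, 0.16 and -0.07. Cnr1 with Daglb (r = 0.23, rho = 0.19, p = 0.0351, adjusted 0.0369) and Cnr1 with Napepld (r = 0.23, rho = 0.28, p = 0.0337, adjusted 0.0369) passed narrowly. Cnr1 with Daglb was -0.26 in run 1, and its rho did not pass (p = 0.0779).

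**Figure D3:**
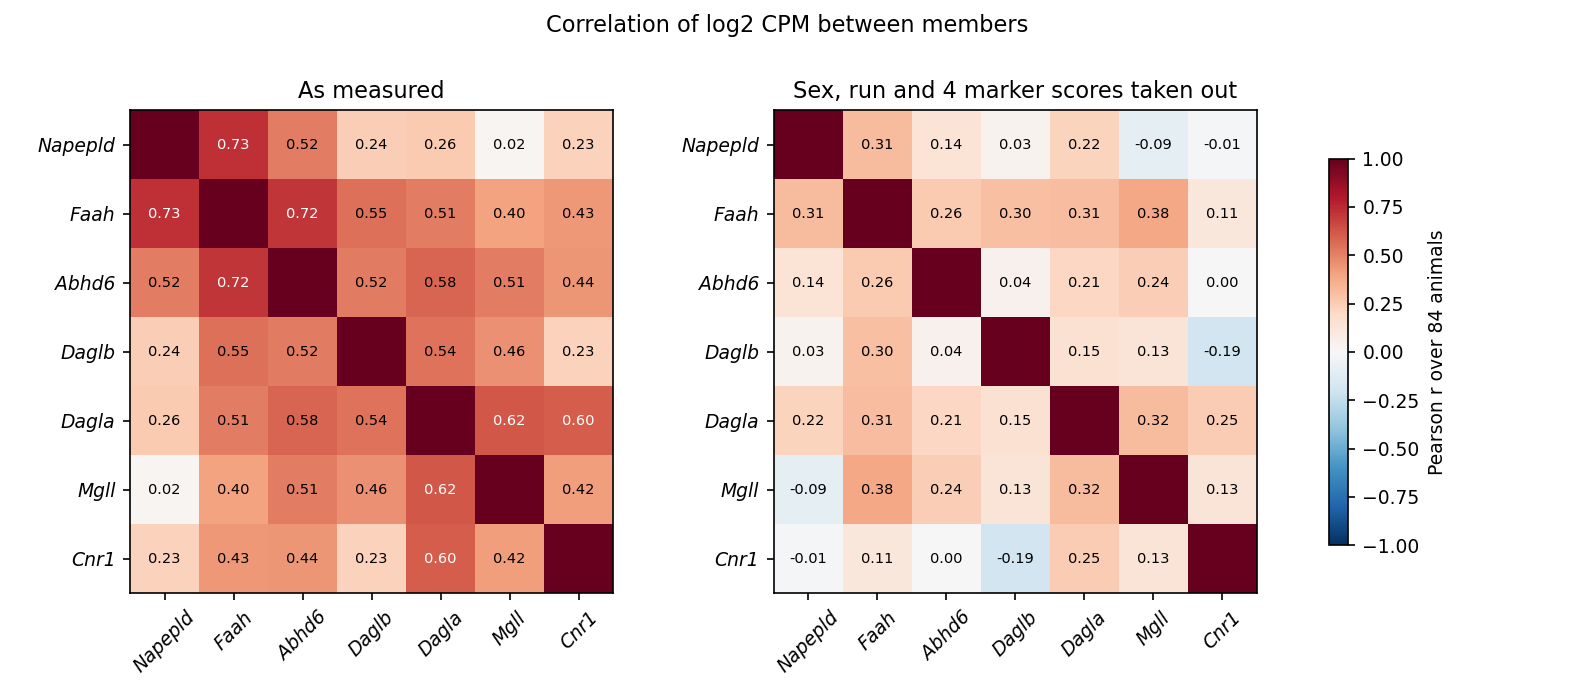
Pearson r of log2 CPM over 84 animals for each pair of the 7 genes, as measured (left) and after sex, run and the scores of 4 marker lists were taken out (right), on a scale from -1 (blue) to 1 (red). As measured, values among Faah, Napepld and Abhd6 run from 0.52 to 0.73, a range that also holds Abhd6 with Dagla (0.58) and Faah with Daglb (0.55). Mgll with Napepld stands at 0.02, while on the right no pair exceeds 0.38.

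Much of this correlation went with the markers of cell types. With sex and run alone taken out, 19 of 21 pairs passed. With the scores of the excitatory neuron, medium spiny neuron, astrocyte and oligodendrocyte lists taken out as well, 5 passed, and r ranged from -0.19 (Cnr1 with Daglb) to 0.38 (Faah with Mgll). Those 5 were Faah with Mgll, with Dagla (0.31), with Daglb (0.30) and with Napepld (0.31), and Mgll with Dagla (0.32). Faah with Abhd6 (0.26), Napepld with Abhd6 (0.14) and Cnr1 with Dagla (0.25) did not pass. Without the 5 libraries lowest in the excitatory score, 15 of 21 passed, with 0.66 for Faah and Napepld, 0.64 for Faah and Abhd6, 0.42 for Napepld and Abhd6, 0.55 for Dagla and Mgll and 0.48 for Cnr1 and Dagla. The 5 pairs that no longer passed were Cnr1 with Faah (0.22), Daglb (0.10) and Napepld (0.06), and Napepld with Dagla (0.15) and Daglb (0.18). The share of all tested genes as highly correlated with a member was not computed for these settings. The pairs that still passed are therefore not set apart from pairs with other genes.

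Each member was set against 12 marker scores, the mean z-score of a list's log2 CPM, and 48 of the 84 relations passed (2-sided permutation test, adjusted over 84), 11 positive and 37 negative. The share of all tested genes that would pass with each score was not computed. These counts therefore do not set the members apart from other genes. The excitatory neuron score had the highest r with every member, and all 7 passed. It was 0.81 for Faah (rho = 0.74, p = 1e-05, adjusted 3.82e-05), with 0.84 without the 2 farthest animals and 0.83, 0.82, 0.81 and 0.83 in the runs. For Abhd6 it was 0.73 (rho 0.66), for Napepld 0.62 (rho 0.48), for Dagla 0.59 (rho 0.57), for Daglb 0.59 (rho 0.71), for Cnr1 0.51 (rho 0.30) and for Mgll 0.46 (rho 0.55). Without the 5 libraries lowest in this score, the 7 values ran from 0.25 for Cnr1 to 0.78 for Faah. That of Cnr1 then no longer passed (p = 0.0284, adjusted 0.0597), and the other 6 did. In female 19, where Slc17a7 was at its lowest of 12.99 CPM, Gad1 was at its highest of 1003, and Cnr1 had its lowest level in a female, 98.8 CPM.

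The score with the lowest r differed between members. For Faah and Abhd6 it was the oligodendrocyte score, with r = -0.74 (rho = -0.75) and -0.70 (rho = -0.70). For Napepld it was the medium spiny neuron score, with r = -0.72 and rho = -0.62 (p = 1e-05, adjusted 3.82e-05), and -0.63, -0.84, -0.72 and -0.63 within the runs. It was -0.72 also without those 5 libraries. Mgll was related to that score the other way, r = 0.28 (p = 0.0109, adjusted 0.0213), and Cnr1 not detectably, r = 0.00 (p = 0.992). For Cnr1, Dagla, Daglb and Mgll the inhibitory and CeA neuron score was lowest, with r of -0.51, -0.57, -0.55 and -0.45. The list of CCK and VIP interneurons had 0 passing relations, and its r with Cnr1 was 0.15 (p = 0.176, adjusted 0.259). It holds Cck, Vip, Adarb2, Htr3a, Npas1, Slc17a8, Cxcl14, Tac1 and Calb2. Whether these genes are particular to such cells in this tissue was not tested. Scores of the same library share its depth and composition, and what part cell mix had in the members' levels was not tested beyond these values.

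**Figure D4:**
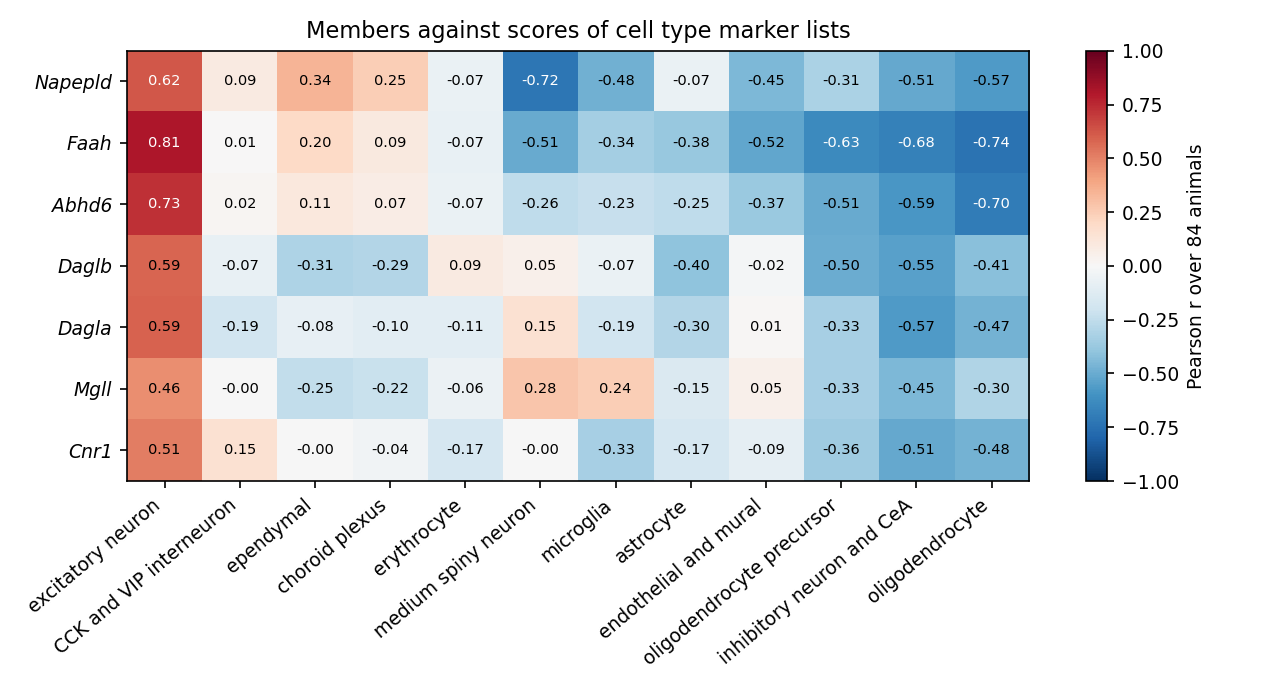
Pearson r over 84 animals between log2 CPM of each of the 7 genes (rows) and the scores of 12 cell type marker lists (columns), from -1 (blue) to 1 (red). The excitatory neuron column is positive for all 7 genes, from 0.46 for Mgll to 0.81 for Faah, and the medium spiny neuron column runs from -0.72 for Napepld to 0.28 for Mgll.

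**Figure D5:**
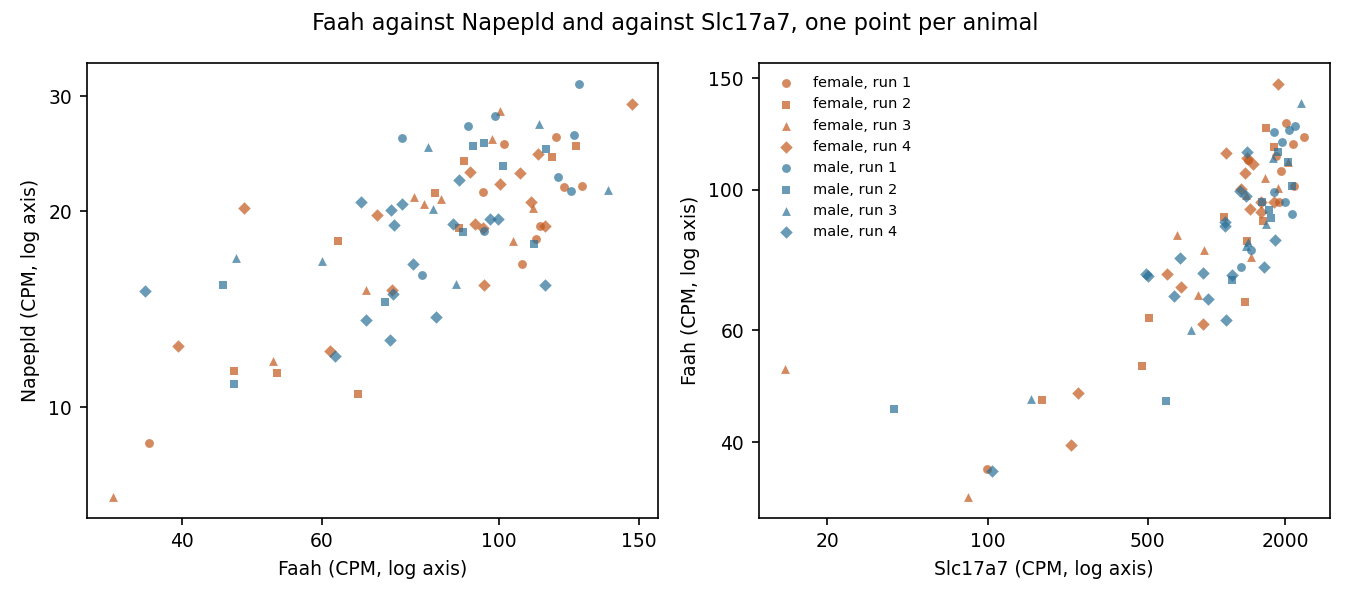
Faah against Napepld (left) and Slc17a7 against Faah (right) in CPM on log axes, 1 point per animal, coloured by sex and shaped by run. Faah and Napepld rise together in both sexes (r = 0.73 on the log2 scale), and animals with little Slc17a7, down to 12.99 CPM, sit at the low end of Faah.

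The genes whose levels followed each member most closely, with sex and run taken out, were found among 10646 genes whose log2 CPM averaged 3 or more. They are given as a description over 84 animals that share depth and cell mix. For Cnr1 they were Gria2, an AMPA receptor subunit (r = 0.81), Abi1 (0.80), Reps2 (0.78), Cnksr2 (0.78) and Lrp11 (0.78), and the most opposite was Endod1 (-0.79). For Dagla they were Dlgap4, a scaffold protein of the postsynaptic density (0.94), Lphn1, the adhesion receptor latrophilin 1 (0.93), Cyfip2 (0.92) and Dlgap2 (0.92), with Cd81, a tetraspanin, most opposite (-0.88). Mgll was closest to Dlgap3, another postsynaptic scaffold (0.77), D17Wsu92e (0.76), Brsk1 (0.76), Map3k10 (0.76) and Ube3b (0.75), and most opposite to Calb2, the calretinin gene (-0.70).

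Faah was closest to Nptxr, the neuronal pentraxin receptor (0.91), Sprn (0.90), Amph (0.89), Rtn4r, the Nogo receptor (0.89), and Fam19a1 (0.89), and most opposite to Osbpl9 (-0.83). Napepld was closest to Cdkl4 (0.79), Bhlhe22, a transcription factor of cortical neurons (0.79), Cdk14 (0.79), Ptprk (0.78) and Fam19a1 (0.78), and most opposite to Tac1, the substance P precursor (-0.78). Abhd6 followed Synpo, the spine protein synaptopodin (0.80), Neurl1b (0.80), Cbfa2t3 (0.79), Rtn4rl2 (0.79) and Schip1 (0.79), and was most opposite to Gal3st1, which makes the myelin lipid sulfatide (-0.73). Daglb followed Rasgef1c (0.77), Osbp2 (0.77), Car7 (0.77), Cabp1 (0.75) and Ndrg3 (0.75), and was most opposite to Rab9b (-0.72). Fam19a1 was the 1 gene among the closest 5 of more than 1 member, Faah and Napepld.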

How the data were processed

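RNA was measured by stranded poly(A) sequencing of CeA tissue, laser-dissected from 25 micron thionin-stained frozen sections of 84 mice, 1 library each, from RNA with a quality score above 7, per the labels' protocols. The deposited values are raw counts of reads per gene, without normalization by the authors, per the labels. Tools named in the submitters' processing notes are STAR, featureCounts 1.6.0 of Subread, FastQC and DESeq2, with build GRCm38 (mm10). Whether counting used strand is not given in the sources used here, so opposite-strand genes that overlap cannot be told apart. The deposited table also gives each gene's exon length, which is neither a count nor a score and was used for RPKM. Left out were 8 more columns, of which 5 are blank and 3 hold undetermined reads.

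Genes were kept by filterByExpr (minimum count 10, minimum total 15, by sex), scaled by TMM and fitted with the robust quasi-likelihood model of edgeR 4.0.16 in R 4.3.3 with Benjamini-Hochberg adjustment over 16320 genes. Preference was taken as the mean of 13 weeks, week 1 and week 13, over all animals (sex as a covariate) and by sex, beside a sex by preference term and sex itself. Per 0.5 preference, SE is the slope over the square root of F. Log2 CPM used a prior count of 2. Correlations and level differences used 2-sided permutation tests with 100000 resamples (NumPy 2.4.6). Replicates are separate animals. Depth was 24118965 to 42036566 counts, and no interval for counting error is given because the spread between animals is larger.

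Alternatives were RLE factors, no filter, DESeq2 1.42.0, limma-voom (limma 3.58.1), run or marker scores as terms, intake (per 10 g/kg), and libraries left out. One of these, leaving out the 5 libraries lowest in the excitatory score, was chosen after seeing the data. The members and gene lists were chosen with earlier results of these data known. All 7 members were named. Other pathway genes were named if they passed in a fit, and otherwise the 3 with the smallest p for mean preference. The closest genes were the 5 highest and 1 lowest r, of which 1 is not reported here. Cnr2, Cnrip1, Sgip1 and Abhd12 were named for their roles. The scripts were tested on simulated data.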

Additional observations from a re-analysis of the deposited data

How the results depend on the processing

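No paired analysis was possible because the replicate numbers follow the order of the samples and no animals are paired across the sexes. No member was called in any of 693 refits of a slope, and 76 of these had the opposite sign, 25 with marker scores as terms and 18 without the 5 libraries lowest in the excitatory score (a setting chosen after seeing the data). The cause was not tested. For mean preference in all animals, Cnr1 turned to -0.043 with run as a term, -0.071 with marker scores, -0.031 without the 5 libraries highest in the choroid plexus score and -0.079 without the 5 lowest in the excitatory score. With marker scores and without those 5, Daglb had -0.042 and -0.0040, and Abhd6 -0.042 and -0.018. Mgll had 0.028 on intake. In males, Faah had -0.0073 for the mean and -0.079 for week 13 with run as a term, and -0.056 and -0.066 without the 5 libraries. For week 1, Cnr1 had -0.011 without the 5 libraries, Mgll 0.0094 without male 39, and Dagla in females -0.0081 with run and -0.0071 with marker scores. For week 13, marker scores gave -0.014 for Abhd6 and, in females, -0.035 for Faah. For sex, Daglb had 0.0042 without the choroid plexus libraries and 0.0074 without the 5 lowest in the excitatory score, and marker scores gave -0.023 for Napepld and -0.0076 for Abhd6.

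The share of all tested genes that were called moved more. With no filter it was 0.172%, 0.0746% and 0.0519% for mean preference (all animals, females, males), 0.224%, 0.0324% and 0.165% for week 1, 0.23%, 0.285% and 0.1% for week 13, 0.0681% for the sex by preference term and 0.24% for sex. Intake gave 0.049% in all animals and 1.24% in females. DESeq2 gave 0.0123% for the mean and for week 13 in males, 0.0184% for week 1 in males, 1.26% for week 13 in females (0.0368% with edgeR) and 0.00613% for the sex by preference term. Limma-voom gave 0% for week 1 in all animals and in males and for week 13 in females. With run as a term it was 0.0123% for week 1 in males, 0% for week 13 in females and 0.00613% for the sex by preference term. Without male 39, 0% of genes were called for week 1 in all animals (0.0306% with this animal) and in males (0.0368% with it). For week 13 in females marker scores gave 0.0123%, leaving out the choroid plexus libraries 0% and the 5 lowest in the excitatory score 0.0123%, and that last setting gave 0.00613% for the mean in females.

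Of 21 pairs, 5 passed with sex, run and 4 scores taken out, when Cnr1 with Daglb (-0.19), Cnr1 with Napepld (-0.011) and Mgll with Napepld (-0.092) were negative. No share over all genes was computed for that setting. Mgll with Napepld was also -0.022 with sex and run taken out and -0.10 without the 5 libraries. Mgll above Cnr1 in level was -0.094 in males. The numbers of passing pairs, of passing score relations and of neighbouring levels stayed within 1.5 times of those reported under the other settings. Of 99 refits, 20 moved the share of genes at an unadjusted p under 0.05 by more than 1.5 times: it fell without the choroid plexus libraries from 3.94% to 1.56% for mean preference and from 6% to 2.78% for week 13 in all animals, and from 6.94% to 3.87% and from 8.64% to 3.93% in females, and with run as a term it was 11% for week 13. Without the choroid plexus libraries it rose from 3.65% to 6.69% for week 13 in males and from 2.3% to 3.54% for week 1 in females. For the sex by preference term it rose from 3.24% to 4.94%. The choroid plexus libraries include animals with high preference (females 17 and 38, male 17), so that setting changes the spread of preference too. Of the 77 member slopes, 2 were under this threshold as reported, 6 with run, 4 with limma-voom, 4 without the choroid plexus libraries and 1 without the 5 lowest in the excitatory score. Depth did not limit the members, whose lowest count in a library was 230, for Napepld. Data were also simulated for the fit on mean preference in all animals (16320 genes). Of 100 genes with a slope of 0.5, 59% were recovered, and of 100 with a slope of 1, 81%, with 6 false calls. Genes were drawn independently, over the levels and spreads of all tested genes, without run, family or cell mix. These shares are thus not the power for the members, whose slopes in the real fit were 0.25 or smaller.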
